A study of Mus musculus with 6 samples.

Results

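The genes described here are 9 alveolar type 1 genes, Hopx, Ager, Pdpn, Aqp5, Rtkn2, Clic5, Cav1, Emp2 and Akap5, all of which were among the 32285 genes of the organoid count tables. They were taken by symbol from a list of genes known for flat alveolar epithelium. Alveolospheres, 3-dimensional organoids of lung epithelium grown in matrigel, were made from alveolar type 2 epithelial cells (AEC2s) and Pdgfra+ fibroblasts (FBs) and were profiled by droplet single-cell RNA sequencing after 2 weeks in culture. The AEC2s of both conditions were tomato+ cells of tamoxifen-induced SpcCreER × Rosa-td26 mice, in which Cre is driven by the surfactant protein C promoter and switches on a tomato reporter. The FBs were GFP+ cells of Pdgfra-GFP reporter mice given PBS (normal FBs) or bleomycin at 2 U/kg (fibrogenic FBs) by oropharyngeal aspiration and harvested on day 14. Another 4 libraries held GFP+ lung cells of Pdgfra-GFP mice: 1 dose of PBS or bleomycin with harvest on day 14 (the labels give both 2 and 4 U/kg for this bleomycin group), or 3 weekly doses of PBS or of bleomycin (1 U/kg for the first 2 doses and 0.5 U/kg for the last), with harvest 2 weeks after the last dose. In the organoids only the FB donors had received PBS or bleomycin. Cells of 3 mice were pooled in each library and each condition had 1 library, so the error between mice is unknown, no difference between conditions could be tested, and every interval below covers counting error only.

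Alveolar type 1 epithelial cells (AEC1s) are the thin, wide cells across which gas passes, and AEC2s are the cuboidal cells that make surfactant and can turn into AEC1s after injury. Cells between these states, with keratins, claudins and stress genes, have been named the pre-alveolar type 1 transitional state (PATS). Hopx encodes a small homeodomain-only transcriptional cofactor, and Ager the receptor for advanced glycation end products, which sits at high density on the basal side of AEC1s. Pdpn encodes podoplanin, a mucin-type glycoprotein also made by lymphatic endothelium and activated FBs, and Aqp5 a water channel of the apical membrane. Emp2 encodes a tetraspan membrane protein and Cav1 the coat protein of caveolae, both of which are also made by stromal cells. Rtkn2 is a further gene used to mark AEC1s, and Clic5 encodes a chloride intracellular channel protein and Akap5 a scaffold that anchors protein kinase A. The question was how much of this AEC1 gene set was present, in which cells, and whether it differed between organoids with normal and with fibrogenic FBs.

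The stretch around the transcript start is shown for 3 of these genes, from RefSeq on GRCm38.p6 (250 bases before the start and 50 after it), because Hopx is the member most used to mark AEC1s and Ager and Aqp5 were members that AEC2s carried too. Hopx lay on the minus strand of chromosome 5 (77086988 to 77115121) with 2 starts in RefSeq, chr5:77115074-77115373 and chr5:77095218-77095517. Ager started on the plus strand of chromosome 17 (chr17:34597600-34597899), and Aqp5 on the plus strand of chromosome 15 (chr15:99590778-99591077). The other members lay at chromosome 4, 143267431 to 143299564 (Pdpn), chromosome 10, 67979570 to 68059740 (Rtkn2), chromosome 17, 44188584 to 44280172 (Clic5), chromosome 6, 17306335 to 17341452 (Cav1), chromosome 16, 10281749 to 10313968 (Emp2), and chromosome 12, 76324891 to 76334153 (Akap5), in the GENCODE vM21 annotation of the same build. Capitals mark the NKX2-1 motif.
Hopx, distal start: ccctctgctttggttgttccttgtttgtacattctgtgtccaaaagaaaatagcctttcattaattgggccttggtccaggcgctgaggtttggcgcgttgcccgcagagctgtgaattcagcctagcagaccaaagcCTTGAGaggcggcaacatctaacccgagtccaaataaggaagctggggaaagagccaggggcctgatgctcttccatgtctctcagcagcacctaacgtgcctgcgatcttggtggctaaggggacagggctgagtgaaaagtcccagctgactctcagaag
Hopx, proximal start: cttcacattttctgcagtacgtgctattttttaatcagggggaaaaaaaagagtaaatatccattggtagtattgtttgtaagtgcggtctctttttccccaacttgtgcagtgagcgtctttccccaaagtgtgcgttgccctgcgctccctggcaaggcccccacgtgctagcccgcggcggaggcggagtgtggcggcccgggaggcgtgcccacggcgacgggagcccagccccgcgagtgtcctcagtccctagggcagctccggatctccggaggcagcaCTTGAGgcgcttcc
Ager: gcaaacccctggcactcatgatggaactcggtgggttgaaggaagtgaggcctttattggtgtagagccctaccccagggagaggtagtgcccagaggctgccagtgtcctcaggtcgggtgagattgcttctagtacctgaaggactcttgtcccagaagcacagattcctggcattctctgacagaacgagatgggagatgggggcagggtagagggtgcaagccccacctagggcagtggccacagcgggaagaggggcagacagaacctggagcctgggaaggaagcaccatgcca
Aqp5: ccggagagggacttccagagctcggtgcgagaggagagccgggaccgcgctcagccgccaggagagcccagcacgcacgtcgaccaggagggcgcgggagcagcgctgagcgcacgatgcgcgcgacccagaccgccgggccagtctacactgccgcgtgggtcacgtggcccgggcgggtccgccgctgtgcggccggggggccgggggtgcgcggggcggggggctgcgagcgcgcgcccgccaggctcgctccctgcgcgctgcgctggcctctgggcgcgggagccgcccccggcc
The letters of 4 motifs were searched on both strands, TEAD (GGAATG), NKX2-1 (CTCAAG), AP-1 (TGAGTCA) and the TATA box (TATAAA), in the 10 entries that RefSeq held for 8 of the 9 genes. The NKX2-1 letters stood in both Hopx windows, beginning 112 bases before the distal start and 36 bases after the proximal one, against 15.9% of all 32851 windows. The TATA letters were found once, in 1 of the Cav1 entries, and are in 13.6% of all windows. TEAD and AP-1 letters, in 14.7% and 5.20% of all windows, were in none of the 10. Base composition set the genes apart from each other: the Aqp5 window had 79.7% GC and 46 CpG pairs and the Ager window 58.3% GC and 4 CpG pairs, where the median window had 52.7% and 7. GENCODE vM21 places the Aqp5 start at 99590782, upstream of the RefSeq one, so nearly all of the Aqp5 window lies inside that gene model. A match of letters is a description and no evidence of binding.

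The normal and fibrogenic organoid libraries held 211680702 and 238618743 unique molecular identifiers (UMIs, counted RNA molecules) in 5441 and 8894 barcodes, and the 4 lung libraries 7201081 to 68354458. Barcodes below 5000 UMIs in organoids or 2000 in lung were set aside, which took 25.4% of the normal and 52.5% of the fibrogenic organoid barcodes and 43.7% of the lung barcodes after repetitive bleomycin, against 5.31% to 7.59% in the other lung libraries. The 2 organoid libraries shared 13 barcodes. Among kept barcodes, 1767 and 1438 were gated as epithelial and 2017 and 2438 as FBs. Epithelial cells were then sorted by summed UMIs per 10000 of marker genes, none of which was a member: 9 AEC1 markers (among them Igfbp2, Spock2, Col4a3 and Sec14l3), 10 AEC2 markers (Sftpc, Lamp3, Abca3 and others) and 6 PATS markers (Krt19, Cldn4, Sfn, Krt7, Clu and Sprr1a). Each of the 9 AEC1, 10 AEC2 and 6 PATS markers was detected in its own gate in both libraries. The AEC1 markers weighed unevenly in their sum: in AEC1-gated cells Ndnf was at 945 and 990 CPM with normal and fibrogenic FBs. Spock2 (18.5 and 16.3 CPM) and Cyp2b10 (2.49 and 2.04 CPM) were low there. Igfbp2 (1.75 and 9.18 CPM) was below its level in organoid FBs (2.13 and 11.4 CPM). The gates were cut on the sums of these markers, so this describes the gates and is no independent check of the cells' identity.

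The PATS gate was applied before the AEC1 gate. In that order the shares of AEC1-gated cells with normal and with fibrogenic FBs lay within each other's counting interval. PATS-gated cells were more frequent with fibrogenic FBs. AEC1-gated cells were 122 of 1767 epithelial cells in normal FB organoids (6.90%, exact Clopper-Pearson 95% interval 5.77 to 8.19) and 95 of 1438 in fibrogenic FB organoids (6.61%, 5.38 to 8.02). PATS-gated cells were 187 (10.6%, 9.19 to 12.1) and 267 (18.6%, 16.6 to 20.7). Of these PATS-gated cells, 30 and 74 had AEC1 markers at or above the AEC1 limit and would otherwise have been AEC1-gated. The likeness of the AEC1 shares therefore holds only for this order of gates. With the AEC1 gate first, these 30 and 74 cells would have joined it, out of 1767 and 1438 epithelial cells. The AEC1-gated share would then have been larger with fibrogenic FBs. AEC2-gated cells made up 61.9% and 58.6%, cycling cells 13.8% and 8.48%, and cells with both AEC1 and AEC2 markers (double-gated) 4.24% and 4.73%. The gates cut a continuous range: 77 of 1523 non-cycling epithelial cells in the normal and 101 of 1316 in the fibrogenic library lay within a factor of the square root of 2 of the AEC1 limit. Double-gated cells had a median of 35244 and 31822 UMIs, between those of AEC1-gated cells (29400 and 29128) and AEC2-gated cells (42388 and 40629); the share of barcodes that held 2 cells was not tested, since the doublet caller marked only 8 and 1 barcodes.

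All 9 genes were higher in AEC1-gated than in AEC2-gated cells of the same library, past a log2 ratio of 1 in both. Counts of this kind are set against all genes with at least 50 UMIs in a comparison: 11.3% of genes were higher by this much in AEC1-gated cells and 9.52% lower in the normal library, and 10.2% and 9.5% in the fibrogenic one. The median of the 9 was 4.92 in normal and 4.89 in fibrogenic FB organoids, where that of all genes was 0.18 and 0.17. A log2 ratio here is that of CPM (UMIs of a gene per 1000000 UMIs of the group) after adding 1 CPM. The size of the contrast differed widely between the members.

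Rtkn2 and Clic5 had the steepest contrast. Rtkn2 was at 319 CPM in AEC1-gated and 2.11 CPM in AEC2-gated cells of normal FB organoids, and at 341 and 3.55 CPM with fibrogenic FBs, log2 ratios of 6.69 and 6.23. Clic5 was at 1078 and 10.6 CPM with normal FBs and at 1069 and 8.19 CPM with fibrogenic FBs, log2 ratios of 6.54 and 6.86. Double-gated cells, which also had AEC2 markers, held Rtkn2 at 176 and 233 CPM and Clic5 at 481 and 480 CPM, so the low levels were those of AEC2-gated cells, which lay below the AEC1 limit of the gate. Akap5 (5.26 and 4.89), Cav1 (4.93 and 5.06) and Hopx (4.92 and 4.97) followed, with Hopx at 3003 against 98.2 CPM in normal and 3171 against 100 CPM in fibrogenic FB organoids. The median AEC2-gated cell had less Hopx than these sums, 23.4 and 22.5 CPM. Emp2 differed by 3.62 and 3.65 and Ager by 3.30 and 3.40.

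Ager, Aqp5 and Pdpn were the least restricted members. Ager was at 6331 CPM (95% Poisson interval 6254 to 6410) in AEC1-gated and 640 CPM (633 to 648) in AEC2-gated cells with normal FBs, and at 6084 (5995 to 6174) and 575 CPM (567 to 583) with fibrogenic FBs. Aqp5 was at 2103 and 923 CPM with normal FBs and at 2044 and 700 CPM with fibrogenic FBs, log2 ratios of 1.19 and 1.54, the smallest of the 9 in each library. The AEC2s of these cultures carried transcripts of the water channel at a large part of the AEC1 level. Pdpn differed by 2.02 and 2.14, from 26.7 to 111 CPM with normal and from 29.6 to 134 CPM with fibrogenic FBs. Another 18 AEC1 genes gave 18 of 18 and 17 of 18 past the fold, with medians of 2.90 and 2.77, between Hbegf at 1.24 and Timp3 at 3.91 in the normal library. Their list was chosen with earlier results of these data known, and the gates compared differ by AEC1 markers. These counts are therefore no independent check.

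**Figure D1:**
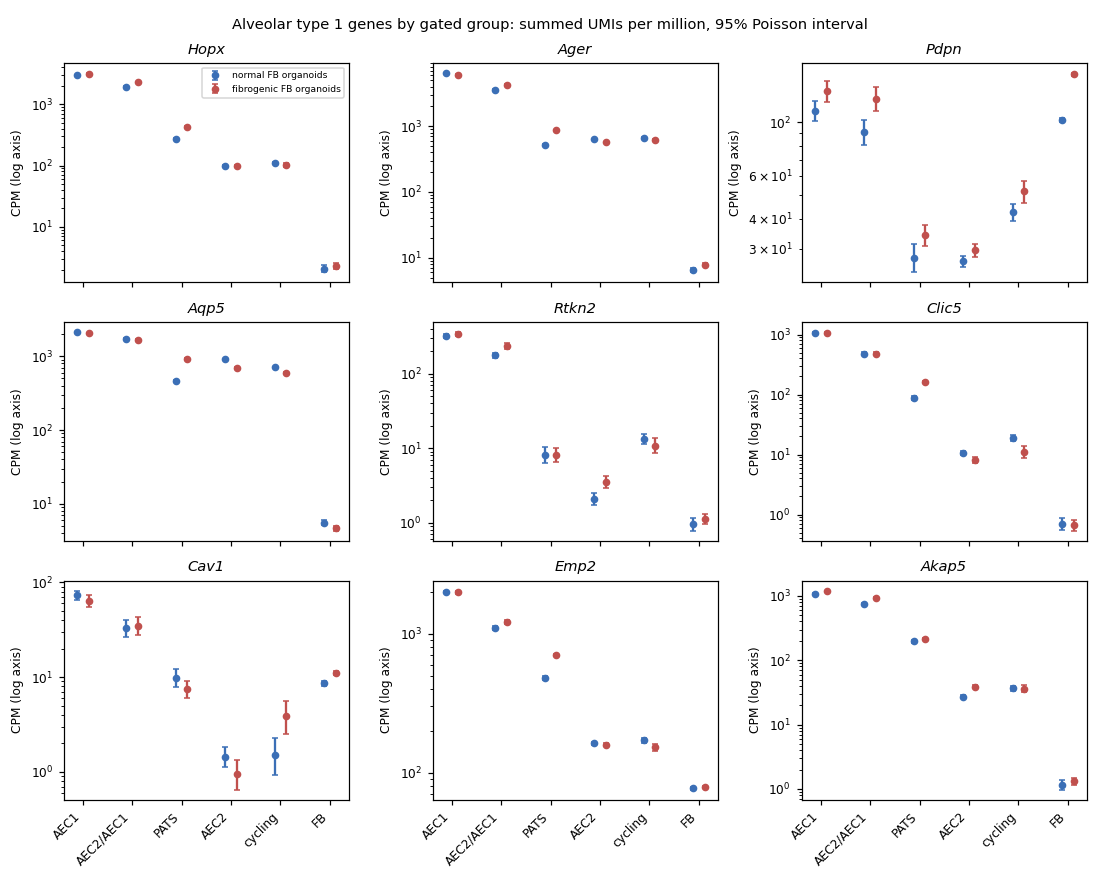
Summed level of each of the 9 genes in CPM (log axis) in AEC1-gated, AEC2/AEC1 double-gated, PATS-gated, AEC2-gated, cycling and FB-gated cells, with blue points for normal and red points for fibrogenic FB organoids and bars for the 95% Poisson interval. Rtkn2 is at 319 and 341 CPM in AEC1-gated cells and 2.11 and 3.55 CPM in AEC2-gated cells, while Pdpn in FBs (102 and 157 CPM) is in the range of AEC1-gated cells (111 and 134 CPM).

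The share of cells with a UMI is given for the same groups. With each cell thinned to 5000 UMIs, the minimum that every kept cell had, Hopx was detected in 97.5% of AEC1-gated cells of the normal and 96.8% of the fibrogenic library and in 22.5% and 21.9% of AEC2-gated cells. Without thinning the AEC2-gated shares were 61.6% and 59.2%, at median depths of 42388 and 40629 UMIs. The FBs of the same organoids (medians of 50769 and 61863 UMIs) gave 0.892% and 1.03% after thinning, below the AEC2-gated shares. They are no strict negative reference, since some GFP+ lung FBs held Hopx. Rtkn2 was found in 63.1% and 60.0% of AEC1-gated and in 1.01% and 1.54% of AEC2-gated cells, against 0.397% and 0.246% of FBs. Aqp5, in contrast, was detected in 94.9% and 90.0% of AEC2-gated cells, and Ager in 87.8% and 82.8%. Pdpn and Cav1 were missed in most AEC1-gated cells at this depth: Pdpn was seen in 38.5% and 40.0% and Cav1 in 23.8% and 28.4%, and the shares without thinning were 79.5% and 82.1% for Pdpn and 64.8% and 61.1% for Cav1.

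The genes were found together in the same cells. AEC1-gated cells had a median of 7 of the 9 genes with a UMI after thinning in both libraries, AEC2-gated cells 3 and FBs 1. At least 5 of the 9 were detected in 120 of 122 AEC1-gated cells of the normal library (98.4%) and in 93 of 95 of the fibrogenic library (97.9%). The shares were 8.87% and 8.66% of AEC2-gated cells, and 0.149% (3 of 2017) and 0.082% (2 of 2438) of FBs. Over all epithelial cells, 20.1% (18.2 to 22.0) had at least 5 of the 9 with normal and 23.6% (21.5 to 25.9) with fibrogenic FBs, and the 2 intervals overlapped. These shares depend on depth: they were 14.9% and 17.5% at 2500 UMIs and 57.3% and 58.1% with no thinning.

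Pairs of genes differed in how much one told of the other. Of Hopx-positive epithelial cells, 94.6% (544 of 575) with normal and 91.3% (462 of 506) with fibrogenic FBs also had Ager. Of Ager-positive cells, 36.8% and 40.8% had Hopx. Over all epithelial cells Ager was detected in 83.8% and 78.7% and Hopx in 32.5% and 35.2%. The unequal shares of this pair thus largely follow how often each gene was detected. With normal FBs Hopx and Ager occurred together in 30.8% of epithelial cells, where the product of their shares was 27.3%. Rtkn2-positive cells had Hopx in 94.3% and 97.4% and Clic5 in 85.7% and 78.3% of cases. Hopx and Clic5 occurred together in 13.4% and 15.4% of epithelial cells, where the product of their shares was 4.81% and 5.80%. Pdpn-positive cells had Hopx in 54.1% and 56.6% of cases. Within AEC1-gated cells Rtkn2 and Cav1 occurred together in 18.9% and 21.1% (12.3 to 26.9 and 13.4 to 30.6), where the product of their shares was 15.0% and 17.1%. Both intervals held the product. Hopx and Pdpn occurred together in 36.9% of AEC1-gated cells with normal FBs, where the product was 37.6%. Within PATS-gated cells Hopx and Ager occurred together in 25.1% and 33.3%, where the product was 13.2% and 20.1%.

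**Figure D2:**
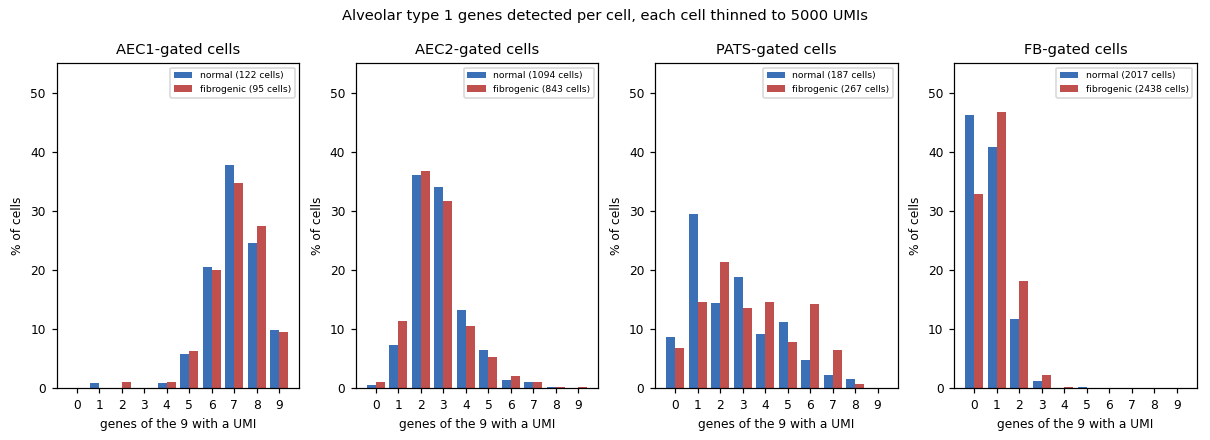
Percent of cells (y axis) by the number of the 9 genes with at least 1 UMI (x axis) after thinning each cell to 5000 UMIs, in AEC1-, AEC2-, PATS- and FB-gated cells of normal (blue) and fibrogenic (red) FB organoids. The median is 7 genes in AEC1-gated cells of both libraries, 3 in AEC2-gated cells, and 2 with normal and 3 with fibrogenic FBs in PATS-gated cells.

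The members came up at different points of the range from AEC2 to AEC1. Epithelial cells outside the cycling and PATS gates were divided into 7 bins of AEC1 marker score, each of 53 or more cells. Hopx was graded over the whole range: it was at 28.3, 56.5, 131, 373, 850, 1712 and 3066 CPM from the lowest to the highest bin with normal FBs, and at 24.3, 44.9, 98.3, 288, 896, 1913 and 3141 CPM with fibrogenic FBs. The top bin exceeded the lowest 108-fold and 129-fold. Rtkn2 (923-fold and 721-fold), Clic5 (613-fold and 621-fold) and Akap5 (319-fold and 285-fold) had a wider range, and Ager (12.6-fold and 14.7-fold), Pdpn (5.25-fold and 6.16-fold) and Aqp5 (2.29-fold and 3.04-fold) a narrow one. The Rtkn2 fold rests on 11 and 9 UMIs in the lowest bin, so its order with Clic5 is not settled. At a marker score of 8 to 16 per 10000, 1 bin below the top, Clic5 had reached 34.6% and 27.6% of its top level and Rtkn2 27.8% and 41.0%, while Hopx was at 55.8% and 60.9% and Aqp5 at 83.5% and 82.0%. The bins are ranges of a score and hold cells of all depths, and no order in time was measured.

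**Figure D3:**
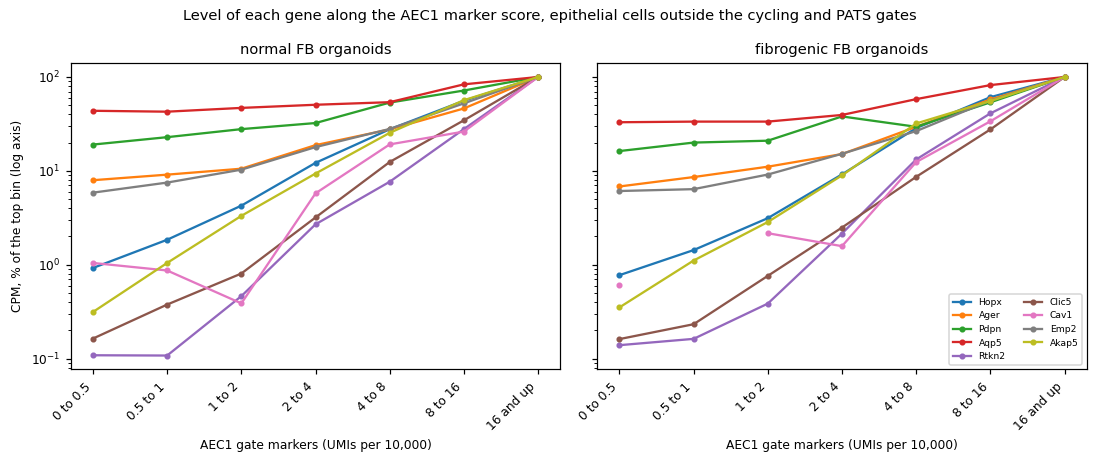
Level of each gene as percent of its top bin (log axis) against the summed AEC1 gate markers in UMIs per 10000, for epithelial cells outside the cycling and PATS gates, with normal FB organoids on the left and fibrogenic on the right. A point is missing where a bin had 0 UMIs (Cav1 with fibrogenic FBs at 0.5 to 1). Aqp5 is nearly flat, with a top bin 2.29-fold and 3.04-fold over the lowest, and Rtkn2 (923-fold and 721-fold) and Clic5 (613-fold and 621-fold) are steep.

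Within AEC1-gated cells the 9 genes had log2 ratios between -0.19 and 0.27 for fibrogenic over normal FB organoids. Hopx was at 3003 CPM (2949 to 3057) with normal and 3171 CPM (3107 to 3236) with fibrogenic FBs, a log2 ratio of 0.08 (bounds 0.02 to 0.13). Akap5 was also higher (1078 and 1171 CPM; 0.12, 0.03 to 0.21), and Ager was lower with fibrogenic FBs (-0.06, -0.10 to -0.02). The intervals of the other 6 included 0 (over all genes 3.01% lay above and 3.01% below 0), among them Pdpn (111 and 134 CPM; 0.27, -0.01 to 0.55), Rtkn2 (319 and 341 CPM) and Cav1 (73.1 and 63.9 CPM; -0.19, -0.56 to 0.18). Clic5 (1078 and 1069 CPM), Aqp5 (2103 and 2044 CPM) and Emp2 (2006 and 2000 CPM) differed least. No member was past a log2 ratio of 1, a size reached by 0.246% of 8925 tested genes upward and 0.583% downward, and the median was -0.0045, beside 0.01 for all genes. Cells varied far more than the libraries: the median AEC1-gated cell had 2892 CPM of Hopx with normal FBs, with 1008 and 4723 CPM at the 10th and 90th percentiles, and 3106 CPM with fibrogenic FBs, with 745 and 5325 CPM.

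In AEC2-gated cells the members differed in both directions, and Aqp5 was lower with fibrogenic FBs. Aqp5 was at 923 CPM (915 to 932) and 700 CPM (691 to 709), a log2 ratio of -0.40 (-0.43 to -0.37). Ager differed by -0.15 (-0.19 to -0.12) and Clic5 (10.6 and 8.19 CPM) by -0.33 (-0.60 to -0.07). Akap5 was higher (27.1 and 38.6 CPM; 0.50, 0.35 to 0.65), as was Rtkn2 (2.11 and 3.55 CPM; 0.55, 0.15 to 0.94), but with Leiden clusters in place of the gates Akap5 was at -0.15 and Rtkn2 at -0.03. Aqp5 was at -0.45 under that setting. Akap5 and Rtkn2 rose steeply along the bins of AEC1 marker score, so cells near the AEC1 limit weigh heavily in these sums. Below 0.5 they were at 3.51 and 4.26 CPM (Akap5) and 0.387 and 0.486 CPM (Rtkn2). From 1 to 2 they were at 37.2 and 34.6 CPM and 1.65 and 1.35 CPM, and from 4 to 8 at 285 and 389 CPM and 27.3 and 46.3 CPM. Hopx (98.2 and 100 CPM), Emp2 (163 and 159 CPM), Pdpn (26.7 and 29.6 CPM) and Cav1 (1.44 and 0.945 CPM) had intervals that included 0. No member passed the fold (0.404% of 13379 genes upward, 0.127% downward), and the median was -0.04, or -0.31 with the Leiden clusters.

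In PATS-gated cells 6 of the 9 genes were higher with fibrogenic FBs by more than counting error, as were 6.6% of all tested genes, with 8.03% lower. Genes of high count have narrow intervals, so small ratios pass this limit too. Aqp5 was at 457 CPM with normal and 924 CPM with fibrogenic FBs, a log2 ratio of 1.01 (0.94 to 1.09), and was the 1 member past the fold, where 0.679% of 11193 genes were that much higher and 0.375% lower. Clic5 (87.5 and 162 CPM; 0.88, 0.72 to 1.05), Ager (513 and 867 CPM; 0.76, 0.68 to 0.83) and Hopx (272 and 426 CPM; 0.65, 0.55 to 0.74) were next. Emp2 (482 and 706 CPM; 0.55, 0.47 to 0.62) and Akap5 (196 and 216 CPM; 0.14, 0.01 to 0.27) completed the 6. Rtkn2, one of the most AEC1-restricted members, was at 8.18 and 8.14 CPM. Pdpn (27.5 and 34.2 CPM) and Cav1 (9.84 and 7.47 CPM) had intervals that included 0. The median of the 9 was 0.55, that of Emp2, beside -0.03 for all genes. With stricter gates it was 0.72 and Rtkn2 was at 0.92, and with Leiden clusters it was 1.01 and Rtkn2 was at 1.01. Markers of other cells stood beside these ratios: in PATS-gated cells the 4 mesothelial markers summed to 288 and 359 CPM, all but 1 UMI per library from Msln, with Upk3b and Lrrn4 at 0, against 0.709 and 1.29 CPM in AEC2-gated and 41.4 and 77.5 CPM in AEC1-gated cells, and the 5 myeloid markers to 7.35 and 16.3 CPM, with 3 of the 5 at 0. Their part in the PATS ratios was not tested. The 18 further AEC1 genes had a median of 0.26, from Pdgfa at -0.18 to Cldn18 at 0.89.

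**Figure D4:**
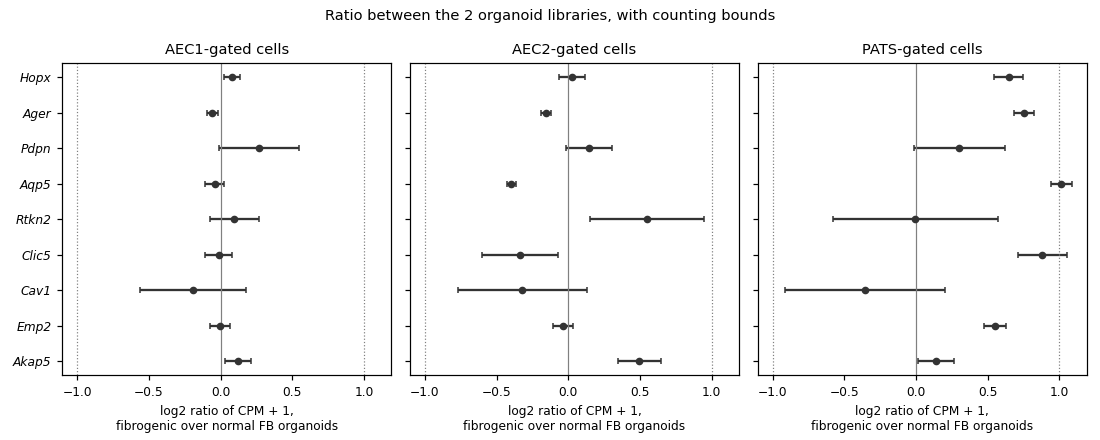
Log2 ratio of CPM + 1, fibrogenic over normal FB organoids (x axis), for the 9 genes in AEC1-gated, AEC2-gated and PATS-gated cells, with bars for the counting bounds and dotted lines at -1 and 1. Points sit near 0 in AEC1-gated cells (-0.19 to 0.27), Aqp5 is lowest in AEC2-gated cells (-0.40), and in PATS-gated cells Aqp5 reaches 1.01 and Clic5 0.88.

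The makeup of the PATS gate differed between the libraries as well. Its cells were split by AEC1 marker score: below 2 per 10000 were 57.2% of them with normal and 44.9% with fibrogenic FBs, and at 8 or more were 16.0% (30 cells, 11.1 to 22.1) and 27.7% (74 cells, 22.4 to 33.5). Over the whole gate Ndnf, a marker in that score, was at 131 and 281 CPM. Scnn1g (24.0 and 40.4 CPM) and Gramd2 (25.6 and 36.6 CPM) were also higher, and Col4a3 (104 and 114 CPM) and Col4a4 (104 and 112 CPM) differed less. At a score of 8 or more Hopx was at 1409 CPM with normal and 1247 CPM with fibrogenic FBs (-0.18), and the median of the 9 was -0.18. Below 2 the median was 0.06, and Hopx was at 21.0 and 25.9 CPM. From 2 to 8 it was 0.38, with Hopx at 198 and 257 CPM. Aqp5 was the member whose counting interval lay above 0 in both upper parts, at 363 and 930 CPM from 2 to 8 (1.36) and at 1529 and 2064 CPM from 8 upward (0.43), but not below 2 (233 and 235 CPM). Ager was higher in the lowest part (31.2 and 72.7 CPM; 1.20), where its level is small. From 2 to 8 Ager was higher too (524 and 761 CPM; 0.54, 0.40 to 0.68). Akap5, higher over the whole gate, was lower with fibrogenic FBs in both upper parts, by -0.45 (-0.68 to -0.22) from 2 to 8 and -0.26 (-0.43 to -0.08) from 8 upward. Rtkn2 (55.1 and 24.4 CPM; -1.14) and Cav1 (26.3 and 11.8 CPM; -1.10) were lower in the top part.

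Summed over the gate and compared with AEC2-gated cells of their own library, PATS-gated cells had more of the AEC1-restricted members. They had less or little more of the others. Clic5 (2.93 with normal and 4.15 with fibrogenic FBs), Akap5 (2.81 and 2.45), Cav1 (2.15 and 2.12), Emp2 (1.56 and 2.15), Rtkn2 (1.56 and 1.01) and Hopx (1.46 and 2.08) were past the fold upward in both libraries. Of all genes, 17.2% were that much higher and 11.2% lower in the normal library and 14.9% and 10.8% in the fibrogenic one. Aqp5 was lower than in AEC2s with normal FBs (-1.01) and higher with fibrogenic FBs (0.40), and Ager changed side in the same way (-0.32 and 0.59). Pdpn was level with AEC2s (0.04 and 0.20). The sums hide a split: 57.2% and 44.9% of PATS-gated cells had an AEC1 marker score below 2. In these, Hopx was at 21.0 and 25.9 CPM, Clic5 at 2.70 and 2.90 CPM and Rtkn2 at 0 and 0.907 CPM. AEC2-gated cells had more of these (98.2 and 100, 10.6 and 8.19, and 2.11 and 3.55 CPM), but their scores reach up to 8. Nearer in score were the binned epithelial cells outside the cycling and PATS gates. At 0 to 0.5 these had Hopx at 28.3 and 24.3 CPM, Clic5 at 1.79 and 1.67 CPM and Rtkn2 at 0.387 and 0.486 CPM. At 1 to 2 they had Hopx at 131 and 98.3 CPM, Clic5 at 8.84 and 7.89 CPM and Rtkn2 at 1.65 and 1.35 CPM. Akap5 (60.9 and 57.3 CPM), Cav1 (5.61 and 5.08 CPM) and Emp2 (191 and 199 CPM) were still above AEC2-gated cells. In thinned PATS-gated cells Aqp5 was detected in 54.0% and 72.3%, Emp2 in 68.4% and 80.1% and Clic5 in 11.8% and 23.2%, and Hopx in 34.2% (27.5 to 41.5) and 40.1% (34.1 to 46.2). At least 5 of the 9 genes were present in 19.8% (14.3 to 26.2) and 29.2% (23.8 to 35.1) of them, and PATS-gated cells made up 10.4% (7.45 to 14.1) and 22.9% (18.6 to 27.8) of all epithelial cells with 5 or more.

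Summed over all epithelial cells, 7 of the 9 genes were higher with fibrogenic FBs by more than counting error and 1 was lower, where 22.3% of all genes were higher and 10.7% lower by this limit. None was past a log2 ratio of 1, where 0.392% of 14794 genes were that much higher and 0.135% lower. Akap5 (128 and 167 CPM; 0.38), Emp2 (330 and 407 CPM; 0.30), Hopx (340 and 415 CPM; 0.28) and Clic5 (92.3 and 112 CPM; 0.28) led. Pdpn (36.3 and 42.3 CPM; 0.22), Rtkn2 (27.4 and 31.2 CPM; 0.18) and Ager (1039 and 1073 CPM; 0.05) were also higher, Cav1 was level (7.20 and 6.97 CPM), and Aqp5 was lower (928 and 844 CPM; -0.14). The median was 0.22, that of Pdpn, beside 0.04 for all genes, and Ager lay at that level. When the fibrogenic group levels were weighted by the group shares of the normal library, the median was 0.11. The ratios were then nearer to 0 for Hopx (0.18), Clic5 (0.10), Emp2 (0.11), Akap5 (0.24) and Ager (0.01), farther from 0 for Pdpn (0.24), Aqp5 (-0.18) and Cav1 (-0.12), and 0.19 for Rtkn2, and 7 of the 9 were above 0 as before. For the 18 further AEC1 genes the median was 0.28, and none was past the fold.

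The parts of the cell groups in the UMIs of several members differed between the 2 conditions. AEC1-gated cells gave 43.9% of the epithelial Hopx UMIs with normal and 37.2% with fibrogenic FBs, while PATS-gated cells gave 8.36% and 20.3%. For Clic5 the AEC1-gated part was 58.2% and 46.3% and the PATS-gated part 9.93% and 28.5%, and for Emp2 the PATS-gated part was 15.3% and 34.3%. PATS-gated cells held 10.5% and 19.7% of all epithelial UMIs. The PATS-gated part was 3.13% and 5.14% for Rtkn2, 14.3% and 21.1% for Cav1 and 16.0% and 25.4% for Akap5, and the AEC1-gated part of Pdpn was 15.2% and 15.4%. Most Aqp5 came from AEC2-gated cells in normal FB organoids (61.0%) and less in fibrogenic ones (47.9%), where these cells held 61.3% and 57.8% of all epithelial UMIs.

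The other gated epithelial cells were double-gated and cycling cells. Double-gated cells had Hopx at 1919 CPM with normal and 2290 CPM with fibrogenic FBs (0.26) and Ager at 3577 and 4286 CPM (0.26), and 6 of the 9 intervals lay above 0, where 6.11% of all genes did and 4.08% lay below 0. Pdpn (90.6 and 125 CPM; 0.46), Rtkn2 (176 and 233 CPM), Emp2 (1098 and 1221 CPM) and Akap5 (748.5 and 933 CPM) were the others, and Aqp5 (1703 and 1640 CPM), Clic5 (481 and 480 CPM) and Cav1 (32.6 and 34.7 CPM) had intervals that included 0. The Leiden cluster labelled double-gated was a wider group, of 284 and 321 cells against 75 and 68 in the gate. In it 5 of the 6 members with intervals above 0 were below 0 (Hopx -0.27, Ager -0.27, Rtkn2 -0.29, Emp2 -0.31 and Akap5 -0.16). With stricter gates Hopx (-0.07) and Emp2 (-0.12) were below 0, so no direction is drawn for double-gated cells. In cycling cells Hopx (110 and 101 CPM) and Emp2 (171 and 153 CPM) were near their AEC2-gated levels. Rtkn2 was at 13.3 and 10.8 CPM in cycling against 2.11 and 3.55 CPM in AEC2-gated cells, and Pdpn at 42.6 and 51.8 CPM against 26.7 and 29.6 CPM. Ager was at 668 and 609 CPM, Aqp5 at 707 and 592 CPM, Clic5 at 18.9 and 10.95 CPM, Akap5 at 36.8 and 36.1 CPM and Cav1 at 1.50 and 3.84 CPM. The cells in no gate were few (45 and 43), with Hopx at 484 and 793 CPM, Clic5 at 63.6 and 169 CPM and Cav1 at 7.06 and 0.824 CPM. Cells past both the PATS and the AEC2 limit are counted among them.

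Over the 14 points of 2 libraries and 7 groups, FBs included, Clic5 ran closest to Emp2 among the members (Pearson r of log2 CPM 0.992) and Akap5 to Hopx (0.989), while Pdpn ran apart from Aqp5 (-0.30) and Ager (-0.09). Outside the list the genes most like Hopx were Gm26671 (0.997), Fam174b (0.997) and Crip2 (0.994). For Ager they were Tmem37 (0.995), Rasgef1a (0.994) and Tspan15 (0.994), for Aqp5 Sh2d4a, Tspan8 and Cystm1 (0.992 each), and for Akap5 Nectin3 (0.992), Fam174b (0.992) and Pard6b (0.989). Clic5 was nearest to Arhgap22 (0.992), C230014O12Rik (0.988) and Pard6b (0.986), and Emp2 to Pgap2 (0.995), Ddx47 (0.992) and Fads3 (0.992). Rtkn2 (2210011C24Rik, 0.981; Zfp266, 0.971; Ebp, 0.970), Pdpn (Mrrf, 0.965; Fgfbp3, 0.949; Mrc2, 0.948) and Cav1 (Sptbn1, 0.953; Apbb2, 0.940; Vps52, 0.934) had looser partners. The points share 2 libraries and 17537 genes were searched, so these values describe likeness only.

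Organoid FBs shared 3 of the 9 genes with the epithelium, and lung FBs, described further below, also held Hopx. In organoid FBs Pdpn was at 102 CPM with normal and 157 CPM with fibrogenic FBs, 281% and 371% of the level over all epithelial cells, and Cav1 at 8.58 and 11.1 CPM, 119% and 160%. Emp2 was at 77.3 and 79.2 CPM, 23.4% and 19.5%. Hopx, Ager and Aqp5 were at 0.551% to 0.738% of the epithelial level, near the 0.458% and 0.449% of Sftpc, a surfactant gene that FBs do not make, and Clic5 and Akap5 were at 0.585% to 0.916%. Their part from free RNA was not tested. Sftpc is 1 of the AEC2 markers that the FB gate limited, so its level in FBs was bounded by that selection. Rtkn2 was at 3.50% and 3.61%, from 0.957 and 1.13 CPM. Pdpn in AEC1-gated cells was thus no higher than in the FBs beside them, with log2 ratios of 0.12 (-0.04 to 0.28) and -0.23 (-0.39 to -0.07).

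Between organoid FBs, Pdpn was higher in the fibrogenic ones by a log2 ratio of 0.62 (0.57 to 0.66) and Cav1 by 0.34 (0.19 to 0.48), and Emp2 was level (0.03, -0.02 to 0.09). At a few CPM, Ager was higher (6.55 and 7.92 CPM; 0.24, 0.08 to 0.41) and Aqp5 lower (5.58 and 4.65 CPM; -0.22, -0.40 to -0.03). No member was past the fold, which 0.398% of 16062 genes passed upward and 0.76% downward. The median of the 9 was 0.09, that of Hopx near its floor, and 0.33 with stricter gates. After thinning to 2000 UMIs Pdpn was detected in 16.8% (15.2 to 18.5) of normal and 24.9% (23.2 to 26.7) of fibrogenic organoid FBs.

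In GFP+ lung FBs Hopx was lower after bleomycin, in both dosing schemes. It was at 10.0 CPM (7.71 to 12.8) after 1 dose of PBS and 2.59 CPM (1.74 to 3.73) after 1 dose of bleomycin, a log2 ratio of -1.62 (-2.34 to -0.88). After 3 weekly doses it was at 44.0 CPM (42.4 to 45.7) and 8.19 CPM (7.48 to 8.95), -2.29 (-2.46 to -2.12). The PBS libraries thus differed from each other as well, and single-dose PBS (10.0 CPM) was near repetitive bleomycin (8.19 CPM). The gene tables of the dosing schemes differed, and each bleomycin library was set only against its own PBS library. The share of FBs with a Hopx UMI at 2000 UMIs per cell was 2.16% (1.30 to 3.35) and 0.572% (0.186 to 1.33) after 1 dose and 8.62% (7.88 to 9.40) and 1.92% (1.58 to 2.32) after 3. Without thinning the shares were 6.70% and 2.63% after 1 dose and 27.8% and 6.80% after 3. Such shares follow depth and mean level, so they do not show whether Hopx was confined to a subset of FBs. Hopx overlaps the antisense gene Hopxos, which had 5.49 and 9.52 CPM in AEC1-gated cells, and Cav1 and Rtkn2 overlap Gm15581 and Gm16212.

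Pdpn was higher and Cav1 and Emp2 lower in lung FBs after bleomycin. Pdpn was at 39.1 and 82.6 CPM after 1 dose (1.06, 0.79 to 1.33) and at 45.5 and 75.8 CPM after 3 (0.72, 0.63 to 0.82). Cav1 was at 111 and 53.2 CPM (-1.05, -1.27 to -0.83) and at 84.5 and 55.5 CPM (-0.60, -0.69 to -0.51). Emp2 was at 263 and 137 CPM (-0.93, -1.08 to -0.79) and at 263 and 157 CPM (-0.74, -0.79 to -0.69). The direction of Pdpn was that of the organoid FBs, which had been 2 weeks in culture, while Cav1 was opposite. The median gene shifted by 0.07 and 0.10, and relative to it these ratios were 0.99 and 0.62 for Pdpn, -1.12 and -0.70 for Cav1 and -1.01 and -0.84 for Emp2.

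The remaining members were at a few CPM in lung FBs. Aqp5 was at 0.956 and 4.65 CPM after 1 dose (6 and 52 UMIs) and at 0.317 and 3.42 CPM after 3 (19 and 204 UMIs). Ager was at 1.59 and 4.12 CPM and at 0.869 and 2.20 CPM. Sftpc was at 63.6 and 67.4 CPM and at 15.6 and 27.4 CPM in the same FBs, and the part of free RNA in these levels was not tested. Clic5 was between 0.984 and 2.39 CPM in the 4 libraries, and Rtkn2 and Akap5 were at 0.802 CPM or less. With at least 50 UMIs were 6 of the 9 genes after 1 dose and 8 after 3. Of the single-dose members Pdpn and Aqp5 were past the fold upward and Hopx and Cav1 downward, where 7.58% of 10949 genes were that much higher and 3.58% lower. The median of the 9 was 0.34 after 1 dose and -0.20 after 3, in both cases that of Akap5, which had few UMIs. After 3 doses Aqp5 was past it upward and Hopx downward, where 6.52% of 15461 genes were that much higher and 1.81% lower.

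Markers of other cells moved with some of these groups, and beyond the values given here their part in the results was not tested. The 4 mesothelial markers summed to 0.956 and 29.4 CPM in lung FBs after 1 dose of PBS and bleomycin, with 2 of the 4 at 0 after PBS, and to 7.84 and 10.9 CPM after 3. The 5 endothelial markers summed to 40.5 and 27.3 CPM and to 28.7 and 24.2 CPM. The 5 myeloid markers summed to 15.0 and 25.05 CPM, to 14.2 and 28.5 CPM, and in normal and fibrogenic organoid FBs to 5.94 and 10.6 CPM. With every FB barcode that had a UMI of a mesothelial or endothelial marker left out (myeloid markers were not used for this), an alternative chosen after the data were seen, the log2 ratios were -1.62 and -2.32 for Hopx, 1.18 and 0.86 for Pdpn, -1.07 and -0.61 for Cav1 and -0.91 and -0.74 for Emp2. The AEC1 gate markers, among them Igfbp2 and Ndnf, summed to 18.5 and 85.3 CPM and to 36.1 and 91.5 CPM in lung FBs, and were used as AEC1 markers only among epithelial cells.

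**Figure D5:**
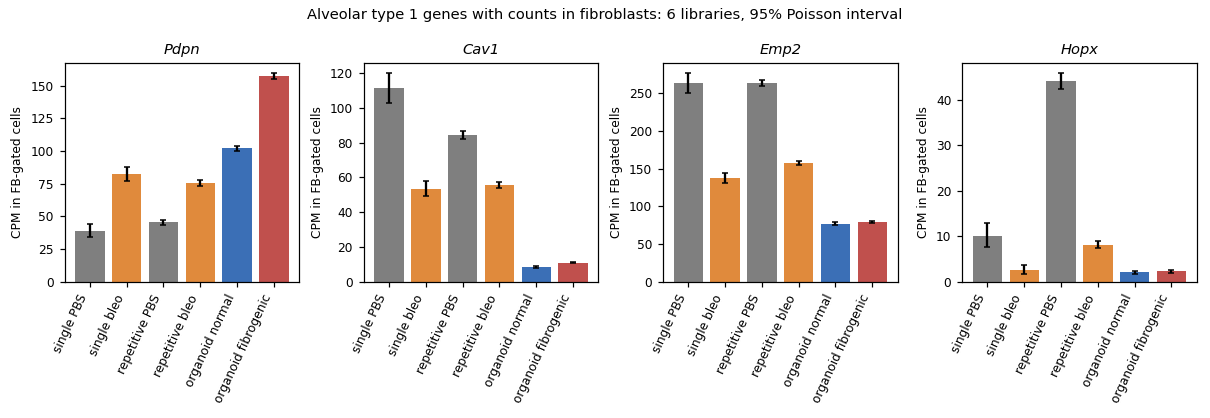
Level of Pdpn, Cav1, Emp2 and Hopx in FB-gated cells of the 6 libraries in CPM (linear axis from 0, 1 bar per library, error bars for the 95% Poisson interval), with gray and orange for lung PBS and bleomycin and blue and red for normal and fibrogenic organoid FBs. Hopx is at 44.0 and 8.19 CPM in the repetitive PBS and bleomycin libraries and at 2.08 and 2.29 CPM in organoid FBs, and Pdpn is higher in the bleomycin or fibrogenic library of each pair.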

How the data were processed

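Droplet single-cell RNA sequencing was done on 6 libraries, 1 per condition, each pooled from 3 mice. The authors aligned and counted reads with Cell Ranger 3.0.1 against mm10, and the deposited tables hold raw UMI counts of genes in barcodes called as cells; Seurat 3 served their own clustering, not used here. The single-dose tables had 30830 and 30828 gene rows and the others 32285. The members and lists were chosen with earlier results of these data known, and the limits of the gates were set on the gate markers' own distributions after the files were seen.

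Barcodes with at least 5000 (organoid) or 2000 (lung) UMIs and at most 25% mitochondrial counts were kept. With UMIs of marker lists per 10000, epithelial cells had over FB markers a log2 ratio above 1 (0.5 added), and FBs below -1 with AEC2 markers under 64 and epithelial markers under 4 (in lung also FB markers of at least 10, above endothelial and myeloid ones). In order, cells were gated as cycling (at least 2), PATS (at least 64, AEC2 under 256), AEC1 (at least 8, AEC2 under 256), double-gated (AEC1 at least 8, AEC2 at least 256) and AEC2 (at least 256). The double and AEC2 gates also required PATS markers under 64, so cells past both the PATS and the AEC2 limit were in no gate. Counts were summed by group, expressed as CPM and compared after adding 1 CPM, with exact 95% Poisson and Clopper-Pearson intervals (Python 3.11.15, numpy 2.4.6, scipy 1.17.1, pandas 2.3.3). The bounds of a ratio set the lower interval bound of one library against the upper bound of the other. For shares, cells were thinned to 5000 UMIs, or 2000 for FBs of all libraries. Past the fold means an absolute log2 ratio of at least 1 among genes with at least 50 UMIs in both libraries together. UMIs were counted at one end of transcripts, so levels were not compared between genes. Scripts were tested on simulated data.

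All 9 members were to be named in every group, and for the few cells in no gate 3 are given. Of the 18 other AEC1 genes the highest and lowest were named, and for likeness the 3 genes of highest r per member. Alternatives were a 10 CPM pseudocount, no minimum of UMIs per gene, centering on the median gene, stricter gates (limits moved by a factor of 2, the epithelial log2 limit to 2), no cell filter, other thinning, Leiden clusters (scanpy 1.11.5, igraph 0.11.9; 2000 genes, 30 components, 20 neighbors, resolution 1) and removal of doublets called by Scrublet in scanpy.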

Additional observations from a re-analysis of the deposited data

Results flagged for a closer look

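A few members went one way in some groups of epithelial cells and the other way in others, with counting intervals that excluded 0 on both sides. With 1 library per condition, none of these differences between groups was tested, and the values are log2 ratios of fibrogenic over normal FB organoids. Of all tested genes, 6.6% had intervals above and 8.03% below 0 in PATS-gated cells. These shares were 6.11% and 4.08% in double-gated and 3.01% and 3.01% in AEC1-gated cells. They were not computed for AEC2-gated and cycling cells, nor was the share of genes that changed side between groups. No trait particular to the members is therefore drawn from these changes of side. Ager, the receptor for advanced glycation end products, was higher in PATS-gated (0.76) and double-gated cells (0.26) and lower in AEC2-gated (-0.15), AEC1-gated (-0.06) and cycling cells (-0.13). In the Leiden cluster labelled double-gated, a wider group of 284 and 321 cells against 75 and 68 in the gate, the ratio of Ager was -0.27. Aqp5, the water channel, was higher in PATS-gated cells (1.01) and lower in AEC2-gated (-0.40) and cycling cells (-0.26). Clic5 was higher in PATS-gated cells (0.88) and lower in AEC2-gated (-0.33) and cycling cells (-0.74), where it was at 18.9 and 10.9 CPM. Emp2 was higher in PATS-gated (0.55) and double-gated cells (0.15) and lower in cycling cells (-0.16). The ratio of Emp2 was -0.31 in that Leiden cluster and -0.12 in double-gated cells with stricter gates.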

How the results depend on the processing

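Depth limits Rtkn2 and Cav1 in AEC2-gated, PATS-gated and cycling cells and the 5 members at a few CPM in lung FBs, and 1 library per condition limits every comparison. No paired analysis was possible because each condition had 1 library, and no replicate could be left out. Of the medians of the 9 genes given above 1 changed sign, that of AEC1-gated cells, from -0.0045 to 0.0070 with no filter on cells. No median is given for double-gated cells, where 5 of the 6 members with intervals above 0 in the gate were below 0 in the Leiden cluster of that label. With 10 CPM added in place of 1 the medians of lung FBs, set by genes of few UMIs, were 0.04 after 1 dose and -0.03 after 3 (0.34 and -0.20 in the report). With Leiden clusters in place of gates the median was -0.31 in AEC2-gated cells (-0.04 with the gates) and 1.01 in PATS-gated cells (0.55 with the gates). Stricter gates gave medians of 0.72 in PATS-gated cells and 0.33 in organoid FBs (0.09 in the report) and 5.69% of AEC1-gated cells in normal FB organoids (6.90% in the report). The share of epithelial cells with at least 5 of the 9 genes was 14.9% and 17.5% in normal and fibrogenic FB organoids when thinned to 2500 UMIs and 57.3% and 58.1% with no thinning (20.1% and 23.6% at 5000). The cause of these shifts was not tested, except that fewer or more UMIs per cell set the last. Single genes moved more: of 45 ratios recomputed with Leiden clusters 26 left their counting interval and 14 changed sign, against 13 and 5 of 66 with stricter gates, and with no cell filter 0 of 66 left it and 3 changed sign. Clusters mixed AEC1-gated with double-gated and other cells, so they gave no AEC1-gated value. The removal of doublets had no effect to show because the caller marked 0.200% and 0.0241% of kept barcodes. The number of all genes past the fold depends on the pseudocount: with 10 CPM in place of 1 it was 16 against 78 in all epithelial cells, 13 against 74 in AEC1-gated, 15 against 71 in AEC2-gated and 17 against 118 in PATS-gated cells, 35 against 186 in organoid FBs, 485 against 1222 in lung FBs after 1 dose and 407 against 1288 after 3. With no minimum of UMIs per gene it was 566 in AEC1-gated and 206 in PATS-gated cells.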
